A study of Homo sapiens with 49 samples.

Results

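The genes described here are 35 genes of DNA replication and of the S phase of the cell cycle, named by symbol. They cover the licensing of replication origins, the firing of those origins, the replication fork, the supply of nucleotides and regulators of S-phase entry. Each gene was represented by its brightest probe set, judged by the mean of the 49 arrays, and all 35 were measured, of 11075 genes tested.

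The arrays came from Ishikawa cells, an estrogen receptor-positive line established from a human endometrial adenocarcinoma, and each array held the RNA of a single sample. The compound was ethinyl estradiol, the synthetic estrogen of many oral contraceptives. Controls received the ethanol vehicle (6 arrays), and treated cells received ethinyl estradiol at concentrations of 0.1, 0.3, 1, 3, 10, 100 or 1000 pM. Every concentration had 6 arrays except 0.3 pM, which had 7. Ethanol was present at 0.1% by volume in every group, per the labels' protocols. All groups were in medium with 5% CSS, the serum supplement as the labels abbreviate it, for 48 h before treatment and were then treated for 72 h with daily partial renewal of the medium. Nothing in the labels ties the replicates to separate cultures. The p-values therefore weigh differences against the spread among these samples alone, and that spread may be technical. The number of arrays limits the precision.

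DNA replication begins when the origin recognition complex, CDC6 and CDT1 load the MCM helicase onto DNA in G1. CDC45 and the GINS complex then join the helicase to start forks, where the clamp loader RFC places the sliding clamp PCNA for the polymerases, and ribonucleotide reductase, thymidylate synthase and thymidine kinase supply the precursors. Many of these genes are transcribed under E2F factors and peak around the G1/S transition, and in estrogen-sensitive epithelium estrogen is best known for driving quiescent cells into S phase.

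The label of the cells was checked first. All 8 epithelial markers exceeded a log2 level of 4, the floor used here for a measurable signal, on all 49 arrays, among them EPCAM (median 11.4) and ESR1, the estrogen receptor (median 8.25). Of 6 stromal markers only COL1A2 did (median 7.76). It rose by 1.07 on the log2 scale at 1000 pM (limma adjusted p = 1.12e-07), while the other 5 stromal, 5 immune and 4 endothelial markers stayed below the floor on every array. The cells responded to the compound: PGR, the progesterone receptor, was 5.13 higher in log2 level at 1000 pM than in vehicle, OLFM1 was 4.30 higher and GREB1 2.63 higher. On 4 arrays the 3′ probe set of beta-actin exceeded the 5′ probe set by 2.67 to 4.62 in log2, against 0.80 to 2.06 on the other 45. They were vehicle replicate 5, replicate 2 at 0.3 pM, and replicate 6 at both 3 pM and 1000 pM, and GAPDH stood apart on the same arrays (0.40 to 1.79 against −0.21 to 0.19).

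The same 4 arrays stood apart in the replication genes. On vehicle replicate 5, 7 of the 35 genes lay more than 1.5-fold above the mean of the other vehicle arrays and 9 more than 1.5-fold below it, from −1.37 (TK1) to 1.21 (E2F1) in log2. The counts were 4 above and 3 below on 0.3 pM replicate 2, 4 and 0 on 3 pM replicate 6, and 3 and 0 on 1000 pM replicate 6. On 44 of the other 45 arrays no replication gene was that far from its group, and vehicle replicate 1 had 1 above and 1 below. LIG1, the ligase that joins Okazaki fragments, was high on all 4 arrays, by 0.71 to 1.09. TK1 and PRIM1 were low on all 4. What set these arrays apart was not tested. Results are given with all 49 arrays, and with the 45 where that is stated.

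**Figure D1:**
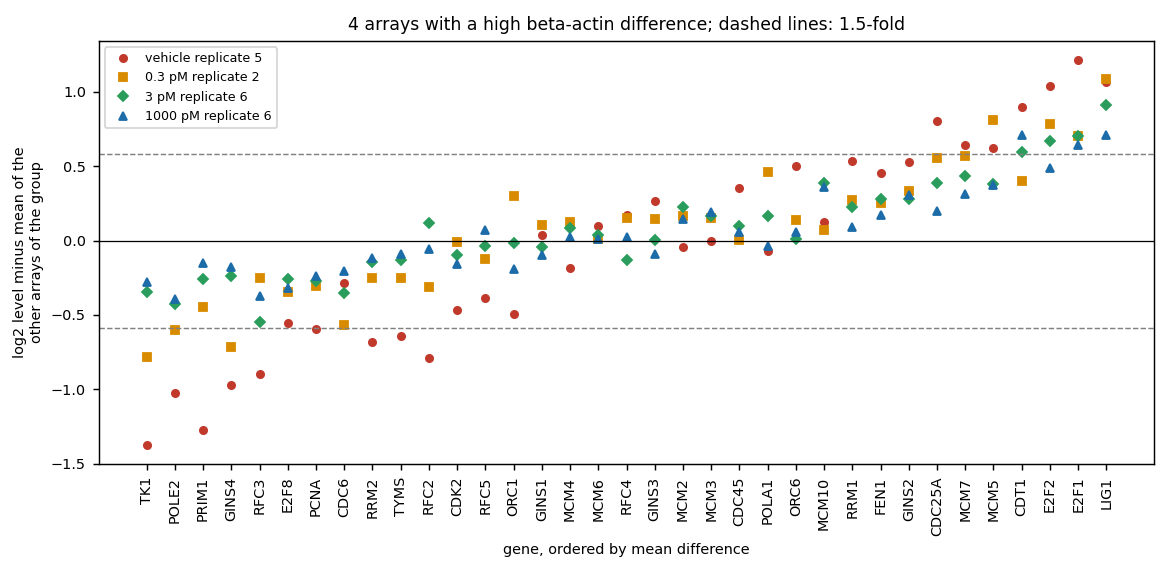
Log2 level of each of the 35 genes on each of the 4 arrays with a high beta-actin difference, minus the mean of the other arrays of the same group. Genes are ordered by the mean of the 4 differences and dashed lines mark 1.5-fold. Vehicle replicate 5 spans −1.37 (TK1) to 1.21 (E2F1), and genes at either end deviate the same way on all 4 arrays.

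Across the whole concentration range the replication genes moved little, as did most genes. The 8 group means of a gene spanned 0.06 to 0.36 in log2 (median 0.16, against 0.20 over all genes tested), and for 32 of the 35 the span was under 1.25-fold, as it was for 79.9% of all genes. No replication gene spanned over 1.5-fold, compared with 3.3% of all genes. RNA per cell and the number of cells in a given phase cannot be told apart in such bulk samples.

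**Figure D2:**
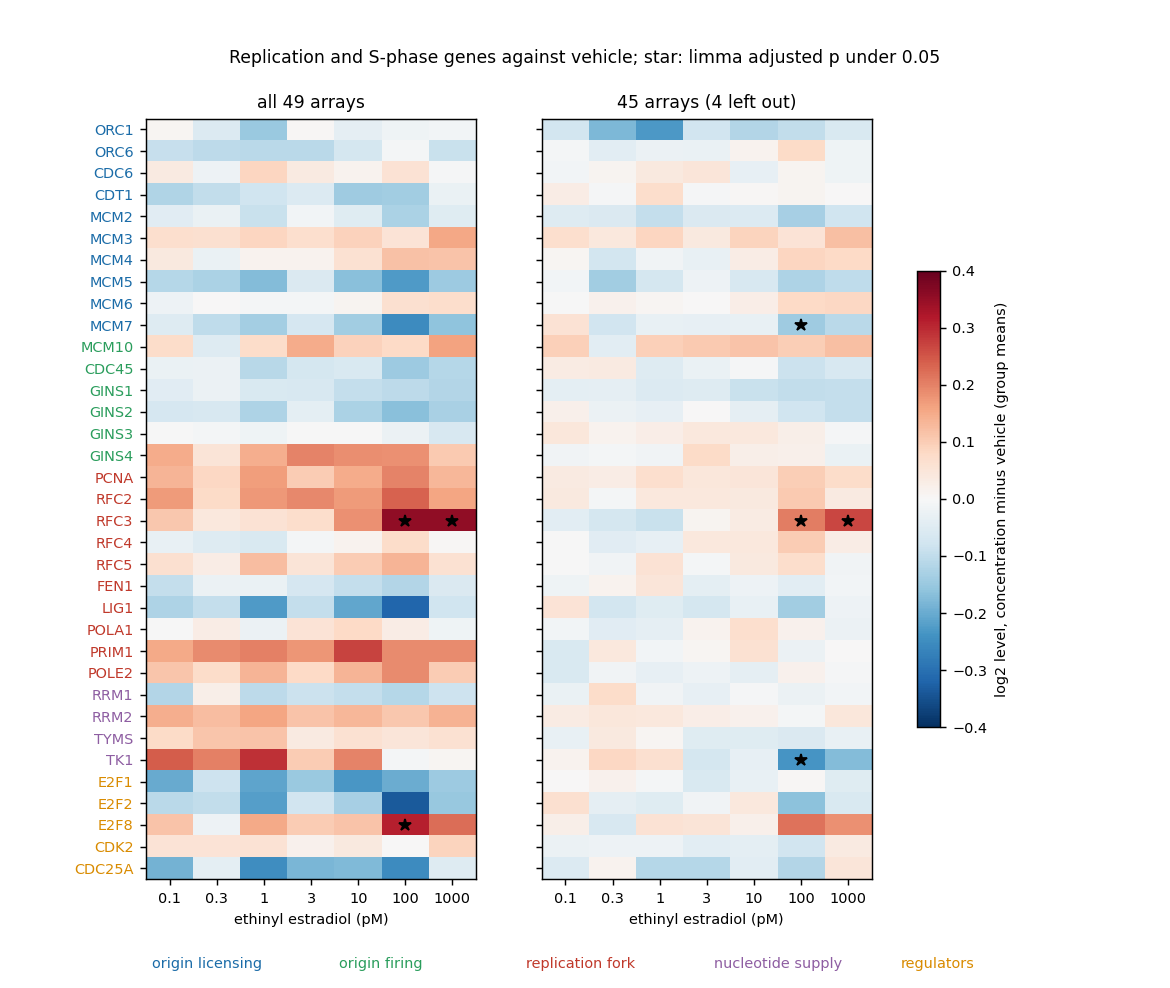
Difference in log2 level between each concentration of ethinyl estradiol and vehicle for the 35 genes, coloured from −0.4 to 0.4, with all 49 arrays (left) and with 45 (right). A star marks a limma adjusted p under 0.05. With 49 arrays the stars are RFC3 at 100 and 1000 pM and E2F8 at 100 pM, and with 45 they are RFC3, MCM7 and TK1 at 100 pM and RFC3 at 1000 pM.

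No replication gene passed the test at 0.1, 0.3, 1, 3 or 10 pM (limma, Benjamini-Hochberg adjusted over 11075 genes, threshold 0.05). At unadjusted p under 0.05 there were 2, 0, 5, 1 and 4 of the 35 at these concentrations (5.71%, 0%, 14.3%, 2.86% and 11.4%), against 4.22%, 2.6%, 7.97%, 3.22% and 12.8% of all genes. Few genes of any kind passed after adjustment: 0% of all genes at 0.1, 0.3 and 1 pM, 0.153% at 3 pM and 0.858% at 10 pM. With 45 arrays the count of replication genes was again 0 at each of the 5, where 0.172% of all genes passed at 3 pM, all higher, and 1.39% at 10 pM (0.695% higher and 0.695% lower).

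At 100 pM, 2 of 35 replication genes rose (RFC3 and E2F8) and 0 fell, while 10.1% of all genes passed (3.85% higher and 6.27% lower). At 1000 pM, 1 rose (RFC3) and 0 fell, against 7.21% of all genes (2.88% higher and 4.33% lower). The median change of the 35 genes was 0.00 at both concentrations, and that of all genes −0.02 at 100 pM and −0.01 at 1000 pM. At 1000 pM the changes ran from −0.16 (MCM7) to 0.35 (RFC3), with 17 genes above vehicle and 18 below. With 45 arrays RFC3 rose and MCM7 and TK1 fell at 100 pM, where 11% of all genes passed (3.86% higher and 7.15% lower). RFC3 rose at 1000 pM with 45 arrays, where 8.81% passed (3.24% higher and 5.57% lower). All comparisons with vehicle share the same vehicle arrays.

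The size of change that the data leave room for was read from the 95% intervals. Their width follows the spread within groups, which at the median was smaller for the 35 genes than for all genes. At 1000 pM all 35 intervals lay within 1.5-fold of vehicle, as did those of 89.7% of all genes, and 23 lay within 1.25-fold (55.8% of all genes). With 45 arrays 32 lay within 1.25-fold (71.1% of all genes). At 100 pM 33 of 35 lay within 1.5-fold (85.1% of all genes) and 21 within 1.25-fold (49% of all genes). The 2 that reached further were LIG1, with a lower bound of −0.70, and E2F2, with −0.62. Both were high on vehicle replicate 5, LIG1 by 1.07 and E2F2 by 1.04 in log2. With 45 arrays all 35 intervals at 100 pM lay within 1.5-fold (94.8% of all genes), and 32 within 1.25-fold (70.4% of all genes).

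A comparison that uses no vehicle array set 100 and 1000 pM together (12 arrays) against 0.1 and 0.3 pM together (13 arrays). With all 49 arrays in the fit RFC3 and E2F8 rose and 0 of 35 fell, where 13% of all genes passed (5.05% higher and 7.91% lower). With 45 arrays 3 rose (RFC3, E2F8 and MCM4) and 4 fell (MCM7, CDC45, GINS2 and TK1), where 21.2% of all genes passed (8.86% higher and 12.4% lower). An F test over the 8 groups called RFC3 (6.99% of all genes) with 49 arrays and RFC3, MCM7 and TK1 (10.5% of all genes) with 45. The share of replication genes that passed in either direction was no higher than the share of all genes in any of these comparisons, with 49 or 45 arrays. Other settings were not compared in this way.

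**Figure D3:**
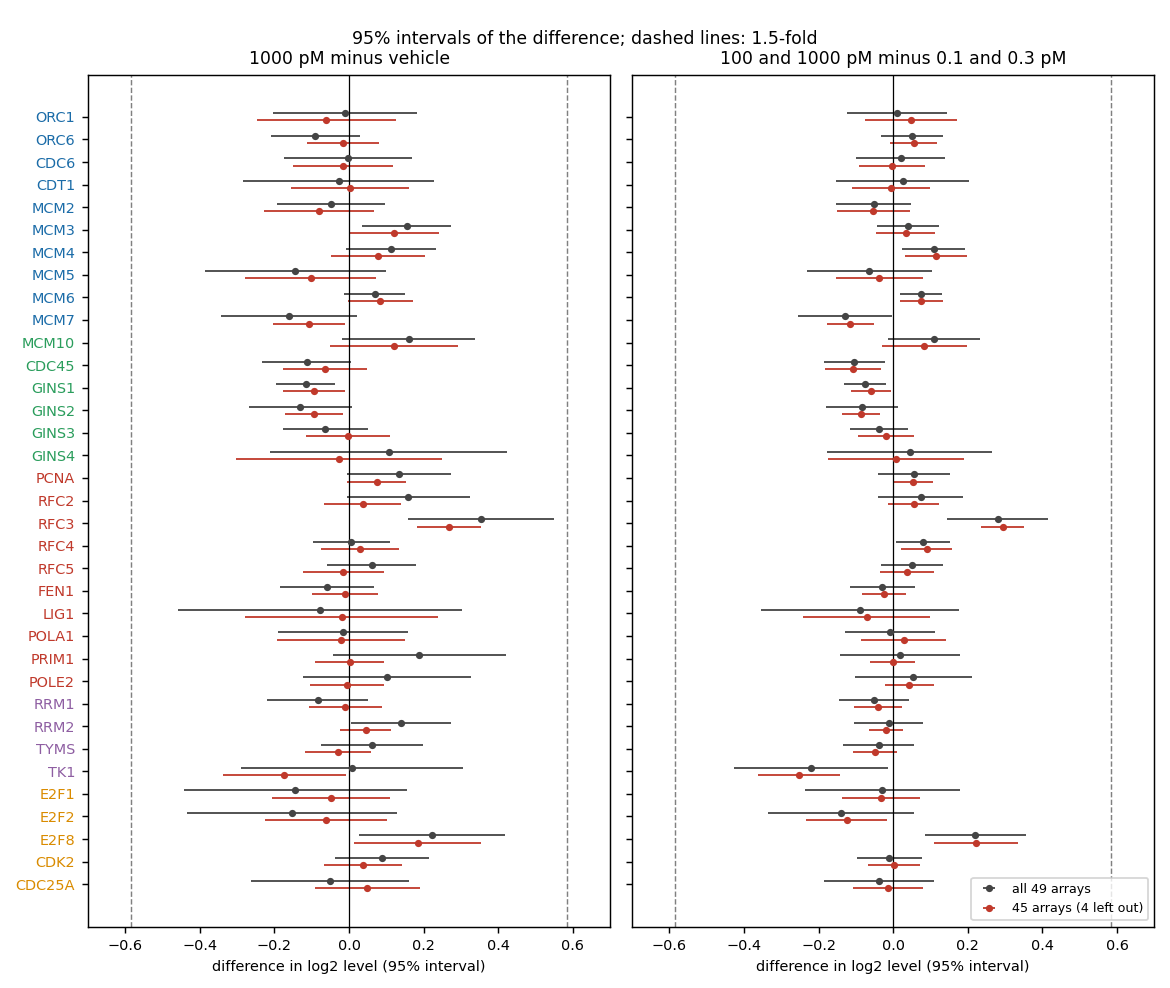
Difference in log2 level with its 95% interval for the 35 genes, at 1000 pM against vehicle (left) and for 100 and 1000 pM together against 0.1 and 0.3 pM together (right). Grey shows the fit of all 49 arrays and red that of 45, and dashed lines mark 1.5-fold. All intervals at 1000 pM lie inside the dashed lines, and RFC3 lies farthest above 0 in both panels.

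At the replication fork, RFC3 had the lowest F test p of the 35 genes. It encodes a small subunit of replication factor C, the complex that opens PCNA and loads it onto DNA. Its log2 level in vehicle was 8.04 at the lowest, 8.91 at the median and 9.03 at the highest (mean 8.79 ± 0.37 SD, n = 6). From 0.1 to 3 pM the group medians lay between 8.84 and 8.92, and at 10 pM the arrays ran from 8.93 through a median of 8.96 to 9.03. At 100 pM the values were 9.06, 9.15 and 9.20 (mean 9.14 ± 0.05, n = 6), so that every array lay above every vehicle array, where the ranges of 4.35% of all genes did not overlap. At 1000 pM they were 8.83, 9.20 and 9.25 (mean 9.14 ± 0.16, n = 6). There 5 arrays lay above all vehicle arrays, and the sixth, 1000 pM replicate 6, lay among them.

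RFC3 rose by 0.36 ± 0.10 (SE) at 100 pM, a 1.28-fold change (limma adjusted p = 0.0131), and by 0.35 ± 0.10 at 1000 pM (95% interval 0.16 to 0.55, limma adjusted p = 0.0139, higher than the vehicle mean on 6 of 6 arrays). Neither call held when vehicle replicate 5, the lowest vehicle array, was the only array left out. The changes were then 0.21 at 100 pM (limma adjusted p = 0.073) and 0.20 at 1000 pM (limma adjusted p = 0.0734). Without all 4 arrays they were 0.21 ± 0.04 (limma adjusted p = 0.000299) and 0.27 ± 0.04 (limma adjusted p = 6.15e-06). In the comparison with no vehicle array RFC3 rose by 0.28 ± 0.07 with 49 arrays (limma adjusted p = 0.00226, higher on 11 of 12) and by 0.29 ± 0.03 with 45 (limma adjusted p = 9.04e-12, higher on 11 of 11).

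**Figure D4:**
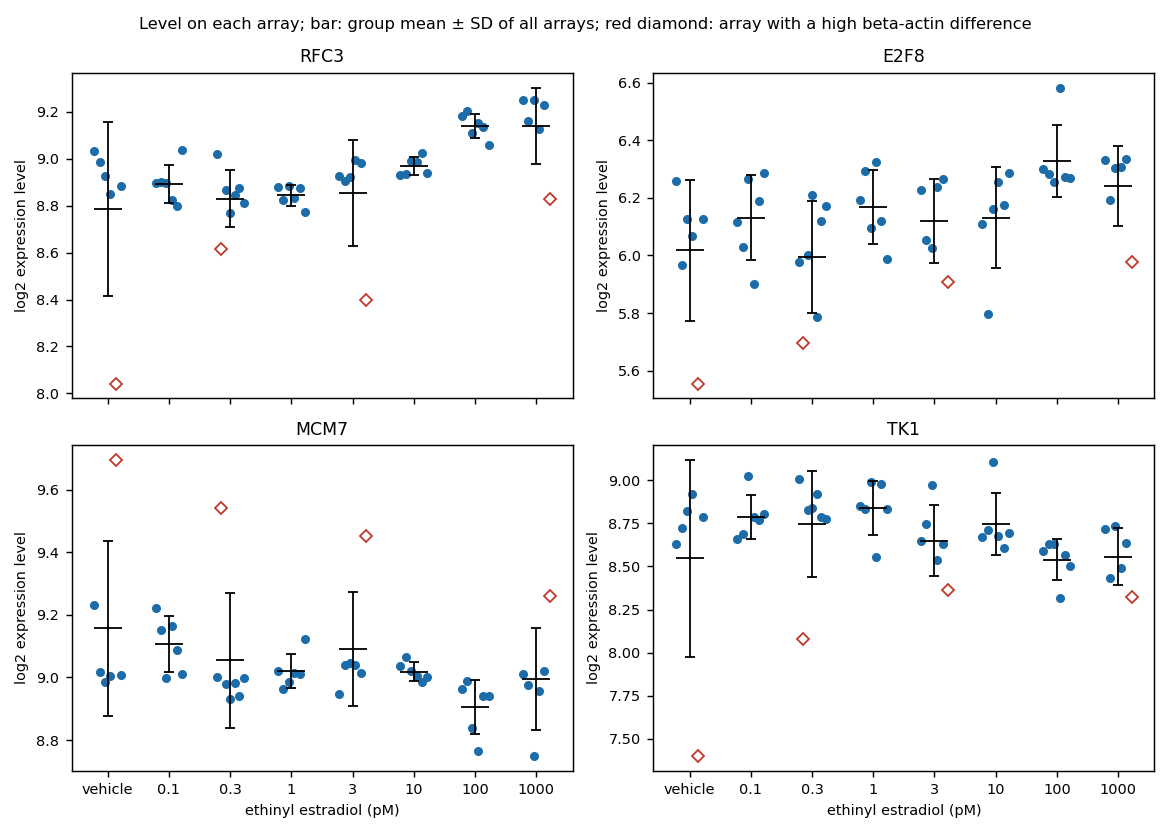
Log2 level of RFC3, E2F8, MCM7 and TK1 on every array by group, with the mean and SD of all arrays of the group. Red diamonds are the 4 arrays with a high beta-actin difference. RFC3 at 100 pM (9.06 to 9.20) lies above every vehicle array (8.04 to 9.03), and the diamonds are the extreme vehicle values of all 4 genes.

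Other probe sets of RFC3 were also higher at 1000 pM. The second differed by 0.87 ± 0.46 (limma adjusted p = 0.35 over 19796 probe sets) and the third, whose mean level of 4.28 lay near the floor, rose by 0.38 ± 0.12 (limma adjusted p = 0.0446). Over the whole gene set 20 of the 35 genes had more than 1 probe set above the floor, and of these 25 further sets 16 had the sign of the chosen set at 1000 pM. The second probe set of MCM6 rose by 0.21 ± 0.06 in the comparison without vehicle (limma adjusted p = 0.021), and the chosen set differed by 0.08 ± 0.03 (limma adjusted p = 0.0698 over genes).

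The other 9 fork genes did not pass with 49 or 45 arrays in these comparisons. PCNA, the sliding clamp, had vehicle levels of 10.43, 11.03 and 11.08 (lowest, median, highest), and 10.99, 11.14 and 11.20 at 100 pM. Its vehicle and 100 pM arrays overlapped, and its difference was 0.20 ± 0.07 (limma adjusted p = 0.0564), or 0.10 ± 0.04 with 45 arrays (limma adjusted p = 0.0841). With weights that give less to arrays of larger residuals, PCNA rose by 0.11 ± 0.04 at 100 pM over all 49 arrays (limma adjusted p = 0.0372). RFC2, another clamp loader subunit, was similar, at 0.24 ± 0.08 (limma adjusted p = 0.0534) and 0.11 ± 0.05 with 45 arrays (0.171). The sister subunits RFC4 and RFC5 differed by 0.07 ± 0.05 and 0.14 ± 0.06 at 100 pM (limma adjusted p = 0.329 and 0.124). PRIM1, the primase subunit that makes RNA primers, differed by 0.19 ± 0.12 at 1000 pM over 49 arrays and by 0.00 ± 0.05 over 45. FEN1, POLA1, POLE2 and LIG1, which process, start, extend and seal new strands, lay between −0.08 and 0.10 at 1000 pM. The median of the 10 fork genes at 1000 pM was 0.08 with 49 arrays and 0.00 with 45.

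Among the 10 licensing genes none passed with 49 arrays. Their median change was −0.01 at 100 pM and −0.02 at 1000 pM, with a range at 1000 pM from −0.16 (MCM7) to 0.15 (MCM3). All 6 MCM subunits form a single helicase ring, yet their differences did not share a sign: at 1000 pM MCM3, MCM4 and MCM6 lay 0.07 to 0.15 above vehicle, and MCM2, MCM5 and MCM7 lay 0.05 to 0.16 below. The difference of MCM3 at 1000 pM was 0.15 ± 0.06 (limma adjusted p = 0.123), and with array weights MCM3 rose by 0.18 ± 0.05 (limma adjusted p = 0.0199).

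MCM7 had vehicle levels of 8.99, 9.01 and 9.69, and the highest was vehicle replicate 5. Its levels were 8.77, 8.94 and 8.99 at 100 pM and 8.75, 8.99 and 9.26 at 1000 pM. All 6 arrays at 100 pM lay below the vehicle mean, though the ranges overlapped. The difference at 100 pM was −0.25 ± 0.09 with 49 arrays (limma adjusted p = 0.0635). With 45 arrays MCM7 fell by 0.14 ± 0.05 on the log2 scale (limma adjusted p = 0.0335), and in the comparison without vehicle by 0.12 ± 0.03 with 45 arrays (limma adjusted p = 0.0062, lower on 11 of 11). At 1000 pM it did not pass with either set of arrays (−0.16 ± 0.09 and −0.11 ± 0.05).

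MCM6 is another subunit of the ring. Its vehicle levels were 9.97, 10.06 and 10.15, against 10.09, 10.15 and 10.17 at 1000 pM. The ranges overlapped, and the difference was 0.07 ± 0.04 (limma adjusted p = 0.364). MCM4 rose by 0.12 ± 0.04 in the comparison without vehicle with 45 arrays (limma adjusted p = 0.0395) and was 0.11 ± 0.04 higher with 49 (limma adjusted p = 0.083). The loaders CDC6 and CDT1 and the origin recognition subunits ORC1 and ORC6 lay between −0.09 and 0.00 at 1000 pM.

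The 6 firing genes did not pass with 49 arrays either, and 4 of them lay below vehicle at 1000 pM (median −0.09). GINS1, a subunit of the complex that activates the helicase, had vehicle levels of 9.87, 9.93 and 9.96. Its levels were 9.77, 9.82 and 9.90 at 100 pM, and 9.73, 9.81 and 9.87 at 1000 pM. Every 1000 pM array lay below every vehicle array, where the ranges of 3.21% of all genes did not overlap, and the difference was −0.12 ± 0.04 (limma adjusted p = 0.0642). With 45 arrays it was −0.09 ± 0.04 (limma adjusted p = 0.169).

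CDC45 and GINS2, which with the MCM ring form the active helicase, fell in the comparison without vehicle when 45 arrays were used. CDC45 fell by 0.11 ± 0.04 (limma adjusted p = 0.0302, lower on 10 of 11) and GINS2 by 0.09 ± 0.03 (limma adjusted p = 0.0111, lower on 11 of 11). With 49 arrays the same differences were −0.10 ± 0.04 (limma adjusted p = 0.0895) and −0.08 ± 0.05 (limma adjusted p = 0.28). MCM10, which helps open the origin, ran from 6.78, 7.00 and 7.10 in vehicle to 7.04, 7.09 and 7.45 at 1000 pM. The ranges overlapped, 1000 pM replicate 6 was the highest, and the difference was 0.16 ± 0.09 (limma adjusted p = 0.331). The sign depended on the probe set, since the other probe sets of MCM10 differed by −0.02 ± 0.09 and −0.09 ± 0.08 at 1000 pM.

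Of the 4 genes of nucleotide supply none passed with 49 arrays. RRM2, the S-phase subunit of ribonucleotide reductase, had vehicle levels of 10.13, 10.80 and 10.89 and levels of 10.74, 10.86 and 10.88 at 1000 pM. Apart from vehicle replicate 5 the groups overlapped, and the difference of 0.14 ± 0.07 (limma adjusted p = 0.244) was 0.04 ± 0.03 with 45 arrays. TYMS, thymidylate synthase, had levels of 10.32, 10.95 and 11.00 in vehicle and 10.83, 10.93 and 10.98 at 1000 pM. Its difference was 0.06 ± 0.07 with 49 arrays and −0.03 ± 0.04 with 45, so its sign turned with the 4 arrays.

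TK1, the thymidine kinase of the salvage pathway, gave different calls with the 2 sets of arrays. In vehicle its levels were 7.40, 8.75 and 8.92, at 100 pM 8.32, 8.58 and 8.63, and at 1000 pM 8.32, 8.56 and 8.74. With vehicle replicate 5 (7.40) in the fit the difference at 100 pM was −0.01 ± 0.15 (limma adjusted p = 0.975). The other probe set of TK1 differed by −0.24 ± 0.08 at 100 pM with 49 arrays (limma adjusted p = 0.0511 over 19796 probe sets). At 1000 pM that set differed by −0.20 ± 0.08 (limma adjusted p = 0.165). With 45 arrays the chosen probe set of TK1 fell by 0.24 ± 0.08 at 100 pM (limma adjusted p = 0.0417). The highest 100 pM array (8.6301) and the lowest remaining vehicle array (8.6305) nearly met. At 1000 pM the difference with 45 arrays was −0.17 ± 0.08 (limma adjusted p = 0.223). In the comparison without vehicle it was −0.22 ± 0.10 with 49 arrays (limma adjusted p = 0.168, lower on 12 of 12), and TK1 fell by 0.25 ± 0.05 with 45 (limma adjusted p = 0.000401, lower on 11 of 11).

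Of the 5 regulators, E2F8, an atypical E2F that represses E2F target genes, rose. Its vehicle levels were 5.56, 6.10 and 6.26, its 100 pM levels 6.25, 6.28 and 6.58, and its 1000 pM levels 5.98, 6.30 and 6.33. At 100 pM 5 of the 6 arrays lay between 6.25 and 6.30, and 1 vehicle array reached into that range. The rise at 100 pM was 0.31 ± 0.10, or 1.24-fold (limma adjusted p = 0.0329), and the difference at 1000 pM was 0.22 ± 0.10 (limma adjusted p = 0.188). The call at 100 pM was lost without vehicle replicate 2 (limma adjusted p = 0.0559), vehicle replicate 5 (0.175) or 100 pM replicate 4 (0.1), and without all 4 arrays (0.22 ± 0.08, 0.0751). In the comparison without vehicle E2F8 rose by 0.22 ± 0.07 with 49 arrays (limma adjusted p = 0.0207) and by 0.22 ± 0.06 with 45 (limma adjusted p = 0.0027). The first of these was at 0.0502 without 0.1 pM replicate 4 and at 0.051 without 100 pM replicate 4.

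The activators E2F1 and E2F2 did not pass. E2F2 differed by −0.34 ± 0.14 at 100 pM with 49 arrays (limma adjusted p = 0.107) and by −0.16 ± 0.08 with 45 (0.182). CDC25A, the phosphatase that activates cyclin-dependent kinases at S-phase entry, differed by −0.25 ± 0.11 and −0.12 ± 0.07 (limma adjusted p = 0.107 and 0.277). Both other probe sets of CDC25A had the opposite sign at 100 pM with 49 arrays (0.44 and 0.31) and did not pass. CDK2, the kinase that drives S-phase entry, had levels of 8.11, 8.54 and 8.69 in vehicle and 8.46, 8.61 and 8.66 at 1000 pM. These groups overlapped and differed by 0.09 ± 0.06 (limma adjusted p = 0.469).

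E2F words, the short motifs that E2F factors recognise, stood before genes whose differences had opposite signs. RefSeq promoter windows of GRCh38.p14, from 250 bases before to 50 after a start site, were found for 30 of the 35 genes (37 windows). An E2F word (TTTCCCGC, TTTGGCGC, TTTCGCGC or TTTGCCGC, on either strand, with overlapping matches counted separately) stood in 18 of the 37 windows (48.6%). The share was 3.31% over all 35116 windows. Those windows belong to 27305 genes, whether or not they were among the genes tested here. The perfect palindrome of the estrogen response element, searched on both strands, stood in 0 of the 37 windows and in 0.057% of all, and the CCAAT box in 64.9% and 34.6%. No E2F word was found in the windows of TK1 and CDC45. A match is a description of the letters and not a binding site. The 250 bases before the start are shown for RFC3, which rose, and for MCM7 and GINS2, which fell with 45 arrays, and the choice was made after their values were seen. Capitals mark E2F words on either strand. RFC3 is on the plus strand at chr13:33817899-33818148, with a word that begins at position −55 from the start. MCM7 (the first of 3 windows) is on the minus strand at chr7:100101398-100101647, with words at positions −187 and −9. No E2F word stood in the other windows of MCM7. GINS2 is on the minus strand at chr16:85688955-85689204, with a word at position −31.
RFC3: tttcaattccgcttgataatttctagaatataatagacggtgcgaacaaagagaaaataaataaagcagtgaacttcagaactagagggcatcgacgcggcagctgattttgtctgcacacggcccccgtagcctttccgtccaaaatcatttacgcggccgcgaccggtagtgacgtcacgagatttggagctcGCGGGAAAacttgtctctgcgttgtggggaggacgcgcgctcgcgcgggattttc
MCM7: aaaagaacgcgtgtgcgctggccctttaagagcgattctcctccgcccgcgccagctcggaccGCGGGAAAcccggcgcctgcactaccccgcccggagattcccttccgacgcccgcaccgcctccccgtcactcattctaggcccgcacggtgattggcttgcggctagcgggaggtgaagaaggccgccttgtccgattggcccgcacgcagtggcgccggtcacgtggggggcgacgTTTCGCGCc
GINS2: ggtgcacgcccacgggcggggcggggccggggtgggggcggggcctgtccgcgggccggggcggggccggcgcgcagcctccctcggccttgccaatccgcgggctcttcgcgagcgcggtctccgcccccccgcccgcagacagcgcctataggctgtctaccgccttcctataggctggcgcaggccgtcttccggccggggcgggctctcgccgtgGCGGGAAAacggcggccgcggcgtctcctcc

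The genes around this set were read from lists of the same pathway. Of 44 further replication genes tested, 1 rose at 1000 pM and 0 fell (median change 0.02), where 2.88% of all genes rose and 4.33% fell: DSCC1, a subunit of an alternative clamp loader that shares RFC3, rose by 0.15 ± 0.04 (limma adjusted p = 0.0118), and by 0.16 ± 0.04 with 45 arrays. At 100 pM 2 rose, DSCC1 and MCM8, and 2 fell, CHAF1A and CHAF1B, subunits of the histone chaperone CAF-1, all named after their values were seen, where 3.85% of all genes rose and 6.27% fell. MCM8 was 0.41 higher with 49 arrays and 0.22 with 45, and CHAF1A differed by −0.26 and −0.15. CHAF1B did not pass with 45 arrays. Of 15 mitosis genes, among them MKI67, TOP2A and PLK1, 0 passed at 1000 pM with limma, where 7.21% of all genes passed. At unadjusted p under 0.05 there was 1, against 18.4% of all genes, and their median change was 0.01. PLK1 lay near the floor, with group means of 4.38 to 4.50.

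Among cyclins, kinases and inhibitors that act around S-phase entry, CDK6 and E2F6 passed with changes larger in size than those of any of the 35 genes at 1000 pM. Of 19 such genes 2 rose and 1 fell at 1000 pM (2.88% and 4.33% of all genes), and with 45 arrays 4 rose and 1 fell (3.24% and 5.57%). CDK6, a G1 kinase, ran from 8.27, 8.31 and 8.49 in vehicle to 8.01, 8.17 and 8.24 at 10 pM, 7.66, 7.87 and 7.93 at 100 pM and 7.56, 7.66 and 7.84 at 1000 pM. From 10 pM on every treated array lay below every vehicle array, and CDK6 fell by 0.67 ± 0.05 at 1000 pM (limma adjusted p = 2.77e-14). CCNE2, a cyclin that activates CDK2, rose by 0.30 ± 0.07 (limma adjusted p = 0.00485), from 7.92, 8.36 and 8.43 in vehicle to 8.54, 8.56 and 8.75 with no overlap. E2F6, a repressor of the E2F family, rose by 0.51 ± 0.09 (limma adjusted p = 2.43e-05), from 6.71, 7.46 and 7.56 to 7.61, 7.82 and 8.04, again with no overlap. With 45 arrays the 3 changes were −0.64, 0.23 and 0.43 and all passed.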

How the data were processed

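RNA of 49 samples was hybridised to Affymetrix arrays, 1 per sample. The deposited values are log2 expression levels per probe set, made by the authors with GCRMA and the Partek software, per the submitters' processing notes, which give no version. The genome build is not given in the sources used here. GCRMA compresses dim signals, so changes of genes near the floor are uncertain.

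The files list 54715 probe sets, of which 40920 carry a single gene symbol, 864 more than 1 and 12931 no symbol; 40864 were found in RefSeq and 0 symbols were updated. A probe set entered if it exceeded log2 4 on at least 6 arrays (22721, of which 19796 had 1 symbol). The set with the highest mean stood for its gene, leaving 11075 genes.

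Group means of the 8 groups were fitted to all 49 arrays with limma 3.58.1 (R 4.3.3; package data.table, version 1.17.8). The prior variance followed the intensity, with 41 residual degrees of freedom and Benjamini-Hochberg adjustment within each of 8 contrasts and the F test (threshold 0.05). Intervals are 95% intervals of the fit. Figures used Python 3.11.15, pandas 2.3.3 and matplotlib 3.10.9. The 4 arrays left out exceeded the median beta-actin difference by over 4 scaled median absolute deviations. Of these, 2 (vehicle replicate 5 and 0.3 pM replicate 2) exceeded it by over 5. The scaling is the default of R, which matches the deviation to a standard deviation.

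The members, lists, tests and alternatives were chosen with earlier results of these data known. Members are named with values if they passed any test with 49 arrays, had the largest change at 1000 pM or the highest mean level of their role, or the 3 lowest p-values of the F test. Further genes are those of the lists that passed at 1000 pM, and PGR, GREB1 and OLFM1. Any others were named after their values were seen.

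On simulated data with 200 changed genes among 11075 (1000 pM against vehicle, 5 runs), the fit recovered 45.6% of 1.25-fold, 85.6% of 1.5-fold, 98.8% of 2-fold and 100% of 4-fold changes, with 5.06% of calls false. The simulated noise was drawn separately for each gene and array, so it held no arrays that stood apart. Alternatives changed the filter, prior, array weights, normalization, probe sets and arrays used, or added replicate numbers as a block.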

Additional observations from a re-analysis of the deposited data

Results flagged for a closer look

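For the 10 members named by rule, the lowest or highest array of each of the 8 groups was compared with its nearest neighbour by Dixon's test, which chance passes in about 1 of 20 groups. Of 80 such groups 20 passed, in 8 genes, and 14 of the 20 were on the 4 arrays with a high beta-actin difference.

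On vehicle replicate 5 the log2 levels standing apart were RFC3 at 8.04 (next array 8.85), PCNA at 10.43 (10.90), RRM2 at 10.13 (10.74), TYMS at 10.315 (10.91) and CDK2 at 8.11 (8.50), all low, and MCM7 at 9.69 (9.23), high. On 1000 pM replicate 6 they were RFC3 at 8.83 (9.13), PCNA at 10.86 (11.06) and RRM2 at 10.74 (10.85), all low, and MCM10 at 7.45 (7.14), high. On 3 pM replicate 6 RFC3 was low at 8.40 (8.90), PCNA low at 10.79 (11.03) and MCM7 high at 9.45 (9.05). On 0.3 pM replicate 2 MCM7 was high at 9.54 (9.00).

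The other 6 were single genes on arrays without a high difference. E2F8 was low on 10 pM replicate 2 at 5.80 (6.11) and high on 100 pM replicate 4 at 6.58 (6.30). MCM7 was high on 1 pM replicate 6 at 9.12 (9.02), and TYMS was low on 100 pM replicate 5 at 10.66 (10.92). CDK2 was low on 0.1 pM replicate 6 at 8.36 (8.54) and high on 1 pM replicate 1 at 8.62 (8.56).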

How the results depend on the processing

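The count of replication genes passing at 0.1 to 10 pM stayed at 0 under every alternative. Of 460 recalculated counts and medians 431 stayed within the limits used. The limit was 1.5 times for a count and a shift of 0.14 in log2 for a median. That limit is wide for medians, which themselves lay near 0. Of 334 values of single genes 311 kept their sign and their side of the threshold, but not always their size. CDK2 at 1000 pM kept both while its difference ranged from 0.01 to 0.33. The count at 100 pM, 2 with all arrays and settings, was 1 with no filter, 5 with array weights, 5 with quantile normalization, 0 with the vehicle and 100 pM arrays fitted alone, 0 without 2 arrays, and 0 to 6 when single arrays were left out. The count at 1000 pM, 1, was 2 with array weights, 2 with quantile normalization, 0 with the mean of a gene's probe sets, 0 with the contrast's arrays alone, 0 without 2 arrays, and 0 to 2 when single arrays were left out, the 0 in each case being without vehicle replicate 5. The count of 2 in the comparison without vehicle was 8 with array weights, 4 with the mean of probe sets, 5 without 2 arrays, 7 without 4 arrays and 2 to 3 with single arrays left out. The F test's count of 1 was 4 with array weights, 0 with the mean of probe sets, 2 without 2 arrays, 3 without 4 arrays and 1 throughout with single arrays left out; fitting a contrast's arrays alone could not be applied to it. The share of all genes that passed was taken only with all arrays and without 4 arrays. Under the other alternatives the counts were not compared with all genes, so they do not show if replication genes passed more often. Whether the replicate numbers pair the arrays was not settled. Correlations of same-numbered arrays ran from −0.51 to 0.57 at 1000 pM and from 0.00 to 0.26 at 100 pM. With the number as a replicate block the comparison without vehicle gave 5 (MCM4, MCM6, GINS1, RFC3 and E2F8) in place of 2, and the block moved no other count by over 1.5 times. RFC3 in that comparison did not pass with the mean of its probe sets (0.34, limma adjusted p = 0.0884). TYMS at 1000 pM turned from 0.06 to −0.0303 with array weights, −0.0456 without 2 arrays, −0.0306 without 4 and −0.0456 without vehicle replicate 5 (range over single arrays left out −0.0456 to 0.0907). GINS1 at 1000 pM passed with quantile normalization (limma adjusted p = 0.0354) and without vehicle replicate 6 (0.0465). The cause of these moves was not tested beyond the arrays named. In the simulation changes of 1.25-fold were often missed, and smaller ones were not simulated.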

Other observations

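In the comparison of 100 and 1000 pM with 0.1 and 0.3 pM with 49 arrays, 3 of 44 further replication genes rose and 0 fell, where 5.05% of all genes rose and 7.91% fell. GMNN, geminin, which holds CDT1 in check, was 0.08 ± 0.02 higher (limma adjusted p = 0.0149), TIPIN, of the fork protection complex, was 0.16 ± 0.05 higher (limma adjusted p = 0.0137), and DSCC1 was 0.12 ± 0.03 higher (limma adjusted p = 0.00111). With 45 arrays 8 of 44 rose and 0 fell, where 8.86% of all genes rose and 12.4% fell. The further 5 were CDC7 and DBF4, the kinase and its activator that fire origins, WDHD1, which ties the helicase to the polymerase, SLBP, the histone mRNA binding protein, and UHRF1, a partner of the maintenance methyltransferase. Their differences were 0.08 (CDC7) to 0.16 (WDHD1) in log2. All were named after their values were seen.

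CDKN1A, the cyclin-dependent kinase inhibitor p21, rose by 0.27 ± 0.08 in the same comparison (limma adjusted p = 0.0177, higher on 12 of 12 arrays). At 1000 pM against vehicle it did not pass with 49 arrays (0.24 ± 0.12, limma adjusted p = 0.274) and passed with 45 (0.35 ± 0.09, limma adjusted p = 0.00475). E2F5, another member of the E2F family, differed by 0.57 ± 0.23 at 1000 pM with 49 arrays and did not pass (limma adjusted p = 0.142). With 45 arrays the difference was smaller, 0.31 ± 0.08, and passed (limma adjusted p = 0.00544). In the comparison without vehicle 0 of the 15 mitosis genes passed with 49 arrays, where 13% of all genes passed. At unadjusted p under 0.05 (limma) there was 1, against 24.7% of all genes. With 45 arrays 1, AURKA, rose and 0 fell, where 8.86% of all genes rose and 12.4% fell. The difference of AURKA was 0.10 ± 0.07 with 49 arrays (limma adjusted p = 0.387) and 0.12 ± 0.03 with 45 (limma adjusted p = 0.00976).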
